A study of Canis lupus familiaris with 10 samples.

Results

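Transcripts of 10 blood and lymphatic endothelial genes were followed in tumors of canine cutaneous histiocytoma (CCH). This benign growth in the skin of dogs arises from dendritic cells of the epidermis and usually regresses. The genes were chosen by name. They are PECAM1, CDH5, VWF, KDR, FLT1, FLT4, TEK, TIE1, LYVE1 and PROX1, all 10 found among the 23266 gene symbols of the table. RNA of formalin-fixed, paraffin-embedded (FFPE) tumors was sequenced from the 3′ end with QuantSeq, which makes 1 fragment per transcript, so the reads of a gene do not grow with its length. Reads of different genes still depend on how fully their 3′ ends are annotated, for which the study extended the annotation. Orders and ratios of different genes therefore describe reads. GEO's labels put 5 tumors in the early and 5 in the late stage of a histological scheme, and the comparison asked which transcripts differ between these stages.

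The early tumors came from 2 French Bulldogs, a Goldendoodle, a Terrier and a Boxer. Their age was 0.5 to 5 years in the 4 dogs for which it is given. The late tumors, which the labels describe as rich in lymphocytes, came from a Rottweiler, a Beagle, a Pug, a Bullterrier and a Jack Russell Terrier aged 1.5 to 9 years. All dogs were privately owned pets, and no treatment is given for either stage. The study removed tissue next to the tumors to get mostly uniform tumor masses. Whole cross sections were used, and each library still mixes tumor cells with vessels, leukocytes, stroma and skin. DV200, a measure of RNA quality, is the percentage of RNA fragments over a set length. It averaged 68.5 ± 2.46 for early tumors and 73.2 ± 2.09 for late tumors (SD over 5 samples each). Its range was 64.5 to 71.2 in early and 71.2 to 75.8 in late samples, so RNA quality went along with stage. The study lists early and late samples in separate RNA extraction batches. Batch and RNA quality therefore cannot be told apart from stage.

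Endothelial cells line blood and lymphatic vessels. Vascular endothelial growth factors (VEGF) act on the receptors FLT1, KDR and FLT4, and angiopoietins act on TEK with its partner TIE1, to drive sprouting, survival and stability of vessels. Lymphatic endothelium is set apart by the transcription factor PROX1 and the hyaluronan receptor LYVE1, and relies on FLT4. Several of these genes are not restricted to endothelium. PECAM1 is also made by leukocytes and platelets, VWF by megakaryocytes, LYVE1 by some macrophages and TEK by some blood cells.

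Levels are given as normalized read counts, the reads of a gene divided by a size factor of the library. Summed over the genes, the libraries held 3132916 to 4439709 reads in early and 2973125 to 3230455 reads in late CCH. These are reads assigned to genes, fewer than the trimmed reads that the study reports. A count of 3 reads, the upper limit for a gene with 0 reads, was worth 2.36 to 3.22 normalized reads. This limit covers counting error only. Libraries carry the numbers 1 to 5 within a stage only as names. The limma test on log2(value + 1) was run for genes that reached 10 normalized reads in 5 or more libraries. Calls required a p of at most 0.05 after Benjamini-Yekutieli (BY) adjustment and a difference between the stage means of log2 values (log2FC, late minus early) of 1 or more in size. Of 12397 genes tested, 131 (1.06%) were called with higher and 138 (1.11%) with lower values in late CCH. With libraries scaled by their total in place of the deposited size factors, the split was 169 higher and 95 lower.

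Of the 10 endothelial genes, 9 passed the filter and PROX1 did not. None of the 9 was called, with 0 higher and 0 lower in late CCH, against the shares of 1.06% and 1.11% among all genes. At an unadjusted p of at most 0.05 the limma test gave 3 of the 9, namely VWF and KDR with higher and FLT4 with lower values in late CCH. Among all genes tested, 30.9% met that criterion, so the share of the endothelial genes was close to the background. The edgeR quasi-likelihood test and the DESeq2 Wald test also called 0 of the 9, with the same count of 2 higher and 1 lower at an unadjusted p of at most 0.05. The log2FC was above 0 in 5 of the 9 genes, with a median of 0.49, compared with 49.8% and a median of -0.004 over all genes tested. In tissue of this kind, fewer endothelial cells and less RNA per cell cannot be told apart.

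**Figure D1:**
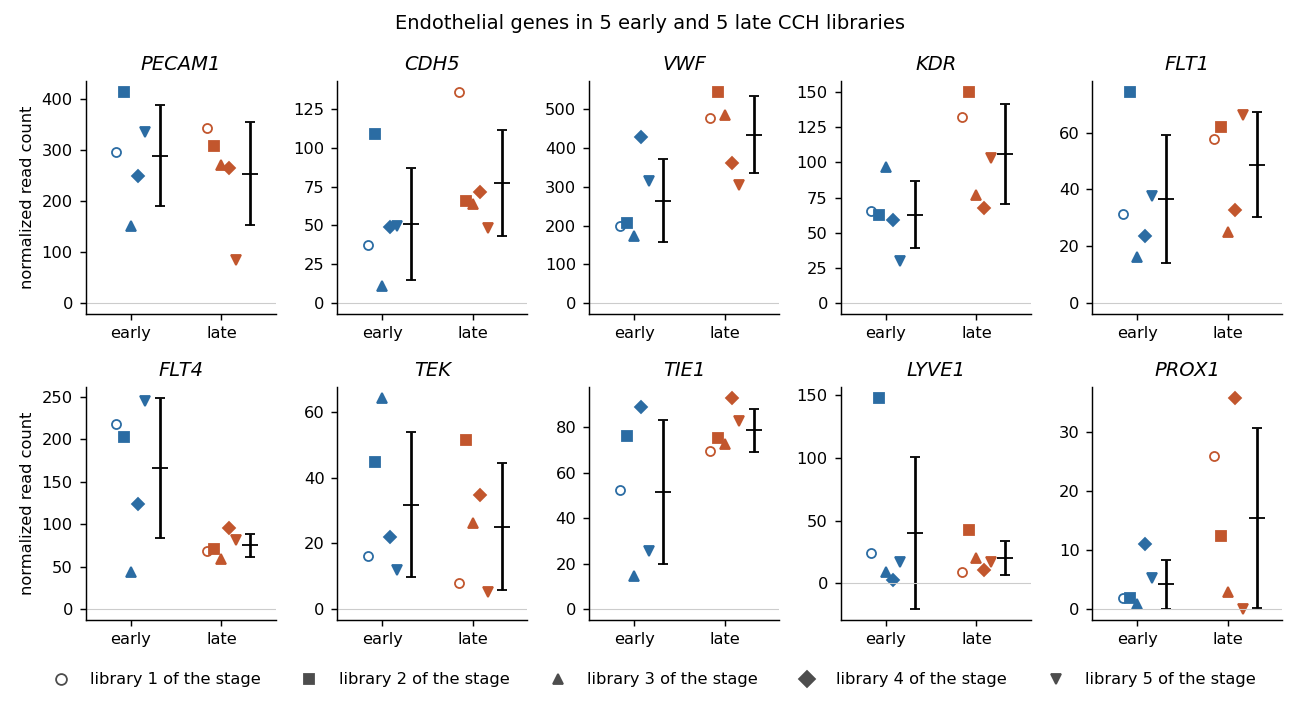
Normalized read counts (vertical axes, linear, a scale of its own for each gene) of the 10 endothelial genes in 5 early (blue) and 5 late (orange) CCH libraries. Symbols name the library within its stage and black bars show mean ± SD (n = 5). The stages overlap for every gene, early library 3 lies low for FLT4, CDH5, TIE1, FLT1 and VWF, and a single early library (147.9) sets the LYVE1 mean.

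The adhesion molecule PECAM1, which sits at the contacts between endothelial cells, had the highest mean normalized read count of the 10 genes in early CCH. Its normalized read counts were 296, 415, 151, 250 and 336 in early and 344, 308, 270, 265 and 83.9 in late libraries. The stages overlapped widely, and the lowest value of all belonged to late library 5. The log2FC was -0.26 ± 0.37 (SE) with a 95% interval of -1.06 to 0.55 (limma, unadjusted p = 0.503), and it was 0.10 without late library 5, where the late mean was 297 ± 36.9 (SD, n = 4).

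CDH5 encodes VE-cadherin, the cadherin of endothelial adherens junctions. Normalized read counts of CDH5 were 37.1, 109, 10.9, 48.8 and 49.4 in early and 136, 65.6, 63.9, 71.6 and 48.3 in late libraries. Late library 1 stood well above the other late libraries, which averaged 62.4, and early library 3 was the lowest of all. With a log2FC of 0.82 ± 0.49 (SE) and an interval of -0.25 to 1.89, the difference was within the spread of the libraries (unadjusted p = 0.122).

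VWF encodes the von Willebrand factor, a glycoprotein that endothelial cells store and release to bind platelets. The early libraries had 198, 206, 174, 428 and 316 normalized reads of VWF, and the late libraries 477, 545, 485, 361 and 304. Of the late libraries, 3 lay above every early library, and all 5 lay above the early median. The mean was 264 ± 107 in early and 435 ± 98.8 in late CCH (SD, n = 5 each), 1.65 times as high. The log2FC of 0.77 ± 0.26 (SE, interval 0.22 to 1.32) had an unadjusted p of 0.0103, the smallest of the 9 genes in limma though not in edgeR or DESeq2, and did not pass the adjustment in limma (BY-adjusted p = 0.588, Benjamini-Hochberg adjusted p = 0.0588).

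Platelets and megakaryocytes also hold VWF and PECAM1 transcripts. Of 9 marker genes of these cells listed, 6 were analysed here, and they summed to normalized read counts of 9.05 to 41.9 in early and 14.3 to 42.8 in late libraries. Only ITGB3, an integrin subunit that endothelial cells also make, passed the filter, with a log2FC of 0.76 ± 0.53 (unadjusted p = 0.181). Their part in the VWF and PECAM1 values was not tested.

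The ratio of VWF to PECAM1 within a library was 0.669, 0.496, 1.15, 1.71 and 0.939 in early and 1.39, 1.77, 1.80, 1.36 and 3.63 in late CCH. It exceeded 1 in 2 early and in all 5 late libraries. This ratio was formed after the values had been seen and was not tested.

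Among the VEGF receptors, KDR (VEGFR2), the main signaling receptor of blood vessel endothelium, gave normalized read counts of 65.7, 62.3, 96.8, 59.1 and 30.1 in early and 132, 150, 76.5, 67.5 and 103 in late libraries. Late libraries 1, 2 and 5 lay above every early library, and early library 3 was the only early library above any late library. The mean was 62.8 ± 23.7 in early and 106 ± 35.4 in late CCH (SD, n = 5 each). The log2FC was 0.77 ± 0.32 (SE, interval 0.08 to 1.46), with an unadjusted p of 0.0317 in limma and a BY-adjusted p of 1. In limma the unadjusted p of KDR rose to 0.0827 without early library 5. It was 0.0750, 0.0846 and 0.0526 without late library 1, 2 or 5.

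FLT1 (VEGFR1) binds VEGF tightly with weak signaling of its own and is also found on monocytes. For FLT1 the normalized read counts were 31.4, 74.4, 16.3, 23.6 and 37.6 in early and 57.7, 61.8, 25.2, 32.7 and 66.1 in late libraries. The stages overlapped throughout, with the highest value in early library 2 and the lowest in early library 3. The log2FC was 0.49 ± 0.41 (SE, interval -0.41 to 1.39, unadjusted p = 0.259).

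FLT4 (VEGFR3), the receptor of VEGFC and VEGFD on lymphatic endothelium and on sprouting blood vessels, had lower values in late CCH. Its normalized read counts were 218, 203, 43.4, 124 and 245 in early and 68.6, 71.4, 59.1, 95.1 and 81.8 in late libraries. Of the early libraries, 4 lay above every late library, while early library 3 lay below all of them. The mean was 167 ± 82.3 in early and 75.2 ± 13.8 in late CCH (SD, n = 5 each), and the log2FC was -0.93 ± 0.40 (SE, interval -1.80 to -0.06, unadjusted p = 0.0380, BY-adjusted p = 1).

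Early library 3 reduced the size of the FLT4 difference. Without it, the log2FC was -1.35 with an unadjusted p of 0.000114, and the BY-adjusted p of 0.0541 in limma still missed the threshold. Without early library 5 instead, the log2FC was -0.74 with an unadjusted p of 0.0998 in limma. The unadjusted p also exceeded 0.05 without early library 1 or 2 or late library 1, 2, 3 or 5. With all libraries, the log2FC of FLT4 was -1.13 in edgeR and -1.14 in DESeq2, with BY-adjusted p-values of 0.616 and 0.216. Without early library 3, the lowest early value of FLT4 was 124. Without the same library, the highest early value of KDR was 65.7, just under the lowest late value of 67.5. Thus 0 of the 9 endothelial genes had late values all above or all below the early values in the full set, and 2 of 9 (KDR above, FLT4 below) did so without early library 3. Over all genes, 5.91% had all late values above and 6.05% all late values below the early values in the full set, and 7.16% and 7.11% without early library 3.

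Within a library, the ratio of FLT4 to KDR was 3.32, 3.25, 0.449, 2.09 and 8.14 in early and 0.519, 0.475, 0.772, 1.41 and 0.796 in late CCH. FLT4 thus had more reads than KDR in 4 early libraries and in 1 late library. The ratio does not depend on the scaling of the libraries. It was formed after the values had been seen and was not tested.

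**Figure D2:**
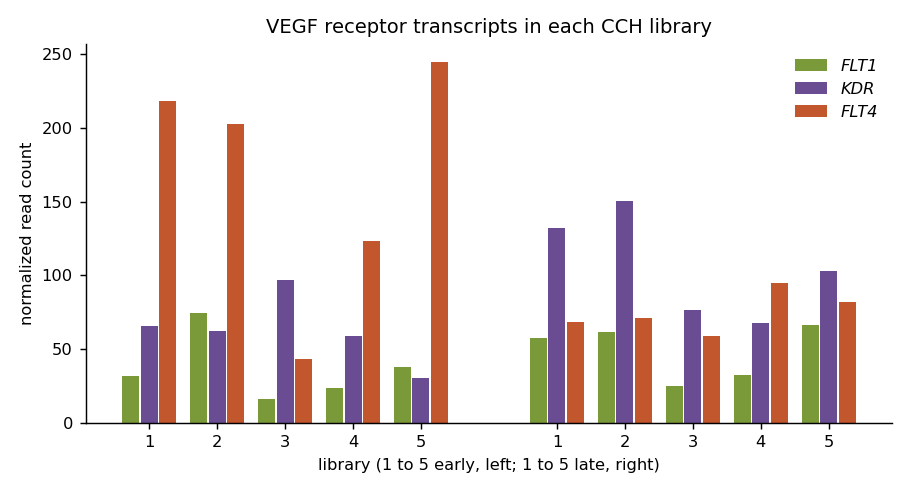
Normalized read counts (vertical axis) of the VEGF receptors FLT1, KDR and FLT4 in each CCH library (horizontal axis, early at left, late at right), 1 bar per gene and library. FLT4 is the tallest bar in early libraries 1, 2, 4 and 5 and in late library 4, and KDR in early library 3 and late libraries 1, 2, 3 and 5.

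TEK (TIE2), the receptor of the angiopoietins, gave normalized read counts of 16.2, 44.7, 64.2, 22.1 and 11.8 in early and 7.95, 51.4, 26.1, 34.8 and 5.25 in late libraries. Both stages spread widely and overlapped, and the highest value came from early library 3, in which 5 other endothelial genes had their lowest value. The log2FC was -0.48 ± 0.64 (SE, interval -1.88 to 0.91, unadjusted p = 0.468). This interval holds decreases past the log2FC threshold of 1 in size as well as increases short of it.

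TIE1, a receptor that binds no angiopoietin by itself and modulates TEK, gave normalized read counts of 52.4, 76.3, 14.5, 89.0 and 25.8 in early and 69.6, 75.2, 72.6, 93.1 and 82.9 in late libraries. The late libraries lay close together, with a coefficient of variation of 12.0% against 61.7% in early CCH, and the difference in spread was not tested. The log2FC was 0.87 ± 0.43 (SE, interval -0.05 to 1.79, unadjusted p = 0.0629).

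LYVE1 gave normalized read counts of 23.8, 148, 9.05, 2.36 and 17.2 in early and 8.95, 42.8, 20.3, 10.2 and 16.8 in late libraries. Early library 2 alone held 74.6% of the 213 LYVE1 reads of the early stage. The mean was 40.1 ± 60.8 (SD, n = 5) in early CCH with this library and 13.1 ± 9.36 (SD, n = 4) without it, and 19.8 ± 13.7 (SD, n = 5) in late CCH. The log2FC accordingly was -0.06 ± 0.83 (SE, interval -1.86 to 1.75) with all libraries and 0.69 without early library 2. The count tests, edgeR and DESeq2, gave -1 and -1.02 with all libraries, at unadjusted p-values of 0.2696 and 0.215.

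PROX1 had few reads. Its normalized read counts were 1.90, 1.86, 0.905, 11.03 and 5.37 in early and 25.9, 12.4, 2.91, 35.8 and 0 in late libraries, which stand for 2, 2, 1, 14 and 5 reads in early and 26, 13, 3, 35 and 0 reads in late CCH. It reached a value of 10 in 4 libraries, 1 early and 3 late, and so missed the filter. With no filter the log2FC was 1.08 ± 0.96 (SE, unadjusted p = 0.277), no more than the libraries varied among themselves.

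**Figure D3:**
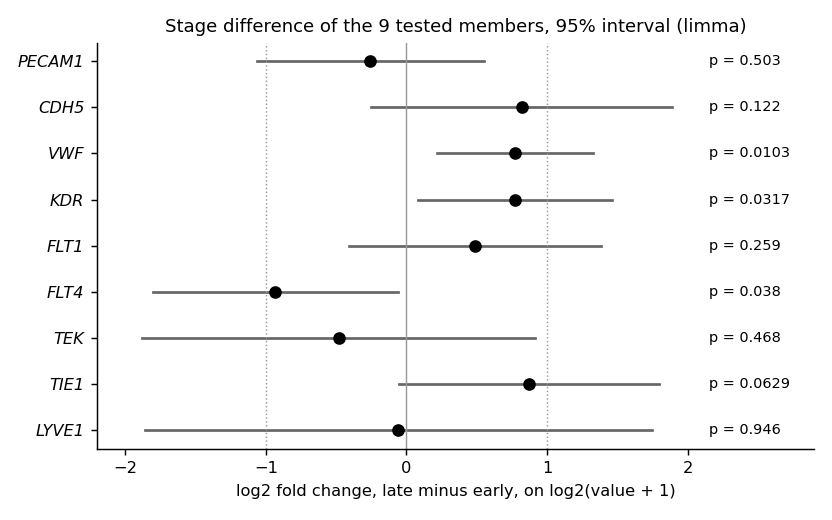
Difference between the stages (horizontal axis, log2FC late minus early on log2(value + 1)) for the 9 endothelial genes that passed the filter, with 95% intervals from limma and unadjusted p-values at right. Dotted lines mark a log2FC of 1 in size. Intervals of VWF, KDR and FLT4 leave out 0, and those of the other 6 genes include it.

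In the order of mean normalized read counts, PECAM1 (290), VWF (264) and FLT4 (167) led early CCH, followed by KDR (62.8), TIE1 (51.6), CDH5 (51.0), LYVE1 (40.1), FLT1 (36.7), TEK (31.8) and PROX1 (4.21). Only the last step, TEK over PROX1, held in all 5 early libraries, and every other pair of neighbors changed places in at least 1 library. In late CCH the order was VWF (435), PECAM1 (254), KDR (106), TIE1 (78.7), CDH5 (77.1), FLT4 (75.2), FLT1 (48.7), TEK (25.1), LYVE1 (19.8) and PROX1 (15.4). There, VWF over PECAM1 and FLT4 over FLT1 held in all 5 libraries, and the other neighbors did not keep their order in each library. The sum of the 10 genes was 581 to 1340 in early and 792 to 1384 in late libraries.

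The libraries differed among themselves within a stage. Early library 3 held the lowest of 10 values for 5 genes (VWF, CDH5, FLT1, FLT4 and TIE1), and late library 5 for 3 (PECAM1, TEK and PROX1). Early library 2 held the highest value for 3 genes (PECAM1, FLT1 and LYVE1). The mean centered log2 value of the 9 genes was highest in early library 2 (0.79) and lowest in early library 3 (-0.80).

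Outside the 10 genes, the profiles nearest to this mean profile were those of SGPL1, CAVIN1, NAGLU, SPATS2 and SPR, with a root mean square difference of 0.18, 0.19, 0.20, 0.22 and 0.23 on the log2 scale over the 10 libraries, among 7864 genes with a mean value of at least 50. The endothelial genes themselves lay 0.47 (FLT1) to 1.11 (LYVE1) from their own mean profile. PECAM1 (0.50) and VWF (0.59) were the next closest, and TEK (1.07) and FLT4 (0.79) the next farthest. The nearest genes outside were picked as the smallest differences among 7864, from a mean that varies less than single genes do. Their distances therefore cannot be set against those of the endothelial genes.

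Of the genes next to the endothelial genes in the annotation of a later dog assembly, none that was tested was called. They included the receptor tyrosine kinase KIT (log2FC 0.70 ± 0.81, SE) and SRD5A3 (-0.61 ± 0.25) on either side of KDR, CNOT6 (-0.32 ± 0.17) beside FLT4, CD9 (-0.72 ± 0.48) beside VWF, and MILR1 (-0.42 ± 0.21) and TEX2 (-0.36 ± 0.24) on either side of PECAM1. PAN3 beside FLT1, RNF141 beside LYVE1, and RPS6KC1 and SMYD2 on either side of PROX1 had log2FC values of -0.07 to 0.55.

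The other genes of the endothelium were described by 6 lists. In the list of vascular endothelial identity and junction genes, 28 of 30 passed the filter, and the late stage had 2 calls with higher and 0 with lower values. The shares called over all genes were 1.06% higher and 1.11% lower. The log2FC was above 0 in 25 of the 28, with a median of 0.59, against 49.8% and -0.004 over all genes. An unadjusted p of at most 0.05 was found for 9 of the 28, all with higher values in late CCH, against 30.9% of all genes in either direction. The late values all lay above the early values for 6 of the 28, against 5.91% of all genes.

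CD34, a sialomucin of capillary endothelium that also marks blood progenitors and some stromal cells, rose in late CCH. Normalized read counts were 97.1, 107, 66.0, 89.0 and 93.4 in early and 264, 229, 204, 264 and 159 in late libraries, with no overlap. The log2FC was 1.29 ± 0.19 (SE, BY-adjusted p = 0.0224). The call held in 5 of 10 fits with a library omitted and was lost without early library 1 or 5 or late library 1, 2 or 4, with a log2FC of 1.18 to 1.41 and a BY-adjusted p of up to 0.0896.

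PTPRB encodes the endothelial phosphatase VE-PTP, which acts on TEK and on VE-cadherin junctions, and rose as well. Its normalized read counts were 27.6, 50.2, 41.6, 37.0 and 38.6 in early and 93.5, 200, 113, 130 and 74.5 in late libraries, again with no overlap. The log2FC was 1.57 ± 0.28 (SE, BY-adjusted p = 0.0448), and the call held in only 2 of the 10 fits without 1 library, those without early library 2 or late library 5, with a log2FC of 1.37 to 1.72 and a BY-adjusted p of up to 0.154.

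The highest log2FC of this list was that of ACVRL1, the endothelial receptor of bone morphogenetic protein 9, at 1.73 ± 0.34 (SE, BY-adjusted p = 0.0659), and the lowest that of ADGRL4, an adhesion receptor of endothelium, at -0.36 ± 0.37. With ACVRL1, CD34 and PTPRB, the genes EGFL7, ICAM2 and RASIP1, named after their values were seen, had late values entirely above the early values. EGFL7, a protein secreted by endothelium, had 37.6 to 90.6 in early and 96.5 to 155 in late libraries. ICAM2, an adhesion molecule of endothelium and leukocytes, had 32.6 to 39.7 and 50.4 to 92.3. RASIP1, which endothelial tubes need to form a lumen, had 6.44 to 11.8 and 12.6 to 40.9. These 3 were not called.

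**Figure D4:**
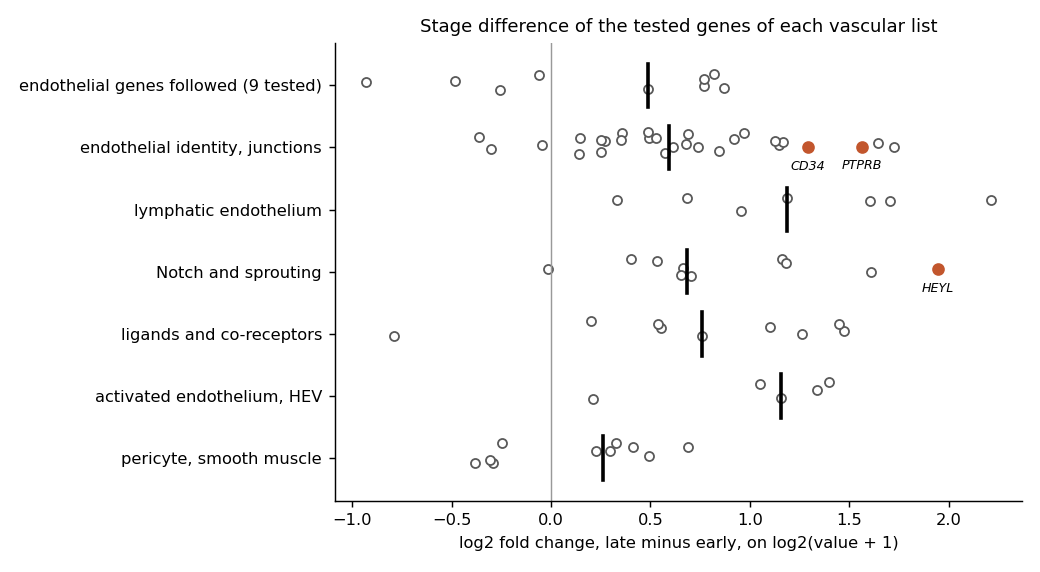
Difference between the stages (horizontal axis, log2FC late minus early on log2(value + 1)) for the tested genes of the endothelial genes followed here (top row) and of 6 further vascular lists. Each circle is a gene, orange circles are called genes, and black bars are list medians, which run from 0.26 for pericyte and smooth muscle markers to 1.19 for lymphatic endothelium. The called genes are CD34, PTPRB and HEYL.

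Of the lymphatic endothelial genes besides LYVE1, PROX1 and FLT4, 7 of 10 passed the filter. All 7 had a log2FC above 0, with a median of 1.19, against 49.8% and -0.004 over all genes. None was called in limma, where 4 had an unadjusted p of at most 0.05, against 30.9% of all genes. The late values all lay above the early values for 2 of the 7, against 5.91% of all genes. CCL21, the chemokine by which lymphatic vessels and lymphoid stroma attract dendritic cells and T cells, had the highest log2FC. Its normalized read counts were 52.4, 46.5, 9.95, 120 and 25.8 in early and 198, 166, 144, 241 and 164 in late libraries, without overlap. The log2FC was 2.21 ± 0.49 (SE, BY-adjusted p = 0.120). ITGA9, an integrin subunit of lymphatic valves, named after its values were seen, also had higher values in all late libraries (44.7 to 109) than in the early ones (14.2 to 38.1). PDPN, which fibroblasts and keratinocytes make as well, had the lowest log2FC at 0.33 ± 0.48.

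Among Notch and sprouting genes, 10 of 13 were tested, and 1 was called higher and 0 lower, against 1.06% and 1.11% of all genes. The log2FC was above 0 in 9 of the 10, with a median of 0.68, against 49.8% and -0.004 over all genes. In limma, 3 of the 10 had an unadjusted p of at most 0.05, against 30.9% of all genes. The late values all lay above the early values for 1 of the 10, against 5.91% of all genes. HEYL, a transcription factor induced by Notch in vessels and in the mural cells around them, rose from 26.7, 43.7, 18.1, 44.1 and 26.8 in early to 154, 104, 60.0, 215 and 116 in late libraries. The log2FC was 1.95 ± 0.35 (SE, BY-adjusted p = 0.0491). This call held in 1 of the 10 fits without a library, that without late library 3, with a BY-adjusted p of up to 0.154, and it was missed by the edgeR test (BY-adjusted p = 0.0535). The Notch ligand DLL1 had the lowest log2FC at -0.02 ± 0.54, and DLL4, the ligand of endothelial tip cells, had 0 reads in every library.

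Of the angiogenic ligands and co-receptors, 9 of 12 were tested and none was called in limma. The log2FC was above 0 in 8 of the 9, with a median of 0.76, against 49.8% and -0.004 over all genes. At an unadjusted p of at most 0.05 in limma, 4 had higher and 1 had lower values, against 30.9% of all genes in either direction. PGF, a ligand of FLT1, had the highest log2FC at 1.47 ± 0.47 (SE, BY-adjusted p = 0.532). NRP1, the co-receptor of VEGF, had the lowest at -0.79 ± 0.32, with a mean of 235 ± 104 in early and 131 ± 38.1 in late CCH (SD, n = 5 each). VEGFB, another ligand of FLT1, named after its values were seen, had 45.7 to 94.98 in early and 106 to 245 in late libraries, which did not overlap, and a log2FC of 1.26 ± 0.27 (SE, BY-adjusted p = 0.0959).

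Genes of activated endothelium and of the high endothelial venules through which lymphocytes enter tissue were tested for 5 of 8. None was called in limma. An unadjusted p of at most 0.05 was found for 3, all with higher values in late CCH, against 30.9% of all genes in either direction. All 5 tested genes had a log2FC above 0, with a median of 1.16, against 49.8% and -0.004 over all genes. The range ran from ACKR1, a chemokine-binding protein of venules, at 0.21 ± 0.37 to SELP, the P-selectin of endothelium and platelets, at 1.40 ± 0.71 (SE). CHST4, MADCAM1 and FUT7 missed the filter and were not tested. The first of these had a mean of 1.31 in early and 0.98 in late CCH, and MADCAM1 of 0.18 and 0.41. FUT7 went the other way from the tested genes, with a mean of 19.6 ± 12.3 in early and 4.58 ± 3.70 in late CCH (SD).

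Markers of pericytes and vascular smooth muscle, the cells that wrap vessels, were tested for 10 of 14. None was called in limma, and 1 had an unadjusted p of at most 0.05, against 30.9% of all genes. The log2FC was above 0 in 6 of the 10, with a median of 0.26, against 49.8% and -0.004 over all genes. The summed normalized read count of the list was 901 to 1503 in early and 1140 to 2067 in late libraries. ACTA2, smooth muscle actin, had the highest log2FC at 0.69 ± 0.29 and MYH11, smooth muscle myosin, the lowest at -0.38 ± 0.45 (SE).

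Markers of other cells of the tissue were set beside these values. None of the 8 T-cell markers and none of the 6 B-cell markers tested was called in limma, and 8 and 5 of them had an unadjusted p of at most 0.05, against 30.9% of all genes. All 8 T-cell markers had late values above every early value, against 5.91% of all genes, with log2FC values from 2.85 (CD2) to 3.71 (CD5), and their sum was 60.0 to 2156 in early and 3722 to 5238 in late libraries. Their lowest early sum was in library 1 and their highest in library 3. Of the B-cell markers, 5 had a log2FC above 0, between -0.28 for CD22 and 4.67 for CD79B, and the list summed to 479 to 726 and 604 to 3169. Of 11 macrophage markers tested, 2 were called higher, against 1.06% of all genes, and 9 had a log2FC above 0, against 49.8%. At an unadjusted p of at most 0.05 in limma, 7 had higher and 1 had lower values in late CCH, against 30.9% of all genes in either direction. The late values all lay above the early values for 3 of the 11, against 5.91%. The macrophage list summed to 2845 to 12264 in early and 6757 to 12505 in late libraries. The called genes were STAB1 (2.72 ± 0.46), a scavenger receptor that sinusoidal and lymphatic endothelium also makes, and TIMD4 (2.64 ± 0.43), a receptor for dying cells on resident macrophages. MRC1, the mannose receptor, had the lowest log2FC at -0.88 ± 0.31. Each call was lost in 8 of the 10 fits without a library.

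Langerhans and dendritic cell markers, which the tumor cells share, were tested for 7 of 10, with 2 called lower, against 1.11% of all genes. All 7 log2FC values lay below 0, against a median of -0.004 over all genes. In limma, 4 had an unadjusted p of at most 0.05, all with lower values, against 30.9% of all genes in either direction. The late values all lay below the early values for 3 of the 7, against 6.05% of all genes. The called genes were FLT3, a receptor of dendritic cells (-2.89 ± 0.50, SE), and FCER1A, a subunit of the IgE receptor (-2.47 ± 0.42), and these calls were lost in 7 and 9 of the 10 fits without a library. Values ranged down to -3.80 for CD1A8 and up to -0.35 for EPCAM. CD207 and CD1A2, which define Langerhans cells, are not analysed here. The list summed to 743 to 1820 in early and 290 to 580 in late libraries.

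The keratinocyte, fibroblast and adipocyte lists had no call in limma. Over all genes, 1.06% were called higher and 1.11% lower, 30.9% had an unadjusted p of at most 0.05 and 49.8% a log2FC above 0. All 8 keratinocyte markers tested had a log2FC below 0, from -1.56 (DSG1) to -0.30 (DSG3), with 1 at an unadjusted p of at most 0.05 and sums of 945 to 16477 in early and 681 to 8242 in late libraries. All 6 fibroblast markers lay below 0, from -0.47 (LUM) to -0.04 (DCN), with 0 at an unadjusted p of at most 0.05 and sums of 7615 to 60438 and 10533 to 35601. The highest fibroblast and macrophage sums of early CCH were both in early library 2, which held the highest PECAM1, FLT1 and LYVE1 values, and the lowest fibroblast sum was in early library 3. The 3 adipocyte markers tested ran from -0.90 (FABP4) to 0.73 (ADIPOQ), with 0 at an unadjusted p of at most 0.05. No skeletal muscle marker passed the filter, MYL1 and MYH2 had 0 reads in every library, and the list summed to at most 33.5 in any library. The part of these cells in the values of the endothelial genes was not tested.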

How the data were processed

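The deposited table gives 1 normalized signal per gene and library, a read count that the authors divided by a size factor. Per the methods and the submitters' processing notes, reads were trimmed with Cutadapt, aligned with STAR to CanFam3.1 and counted with featureCounts, and DESeq2 was used. Versions are not given in the sources used here. All 166096 values above 0 (100%) were whole multiples of 1 read within a tolerance of 0.001. The 11 other columns of values match no sample here and were not used. Column names show the stage but not the sample, so age, DV200 and extraction batch could not be tied to libraries.

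The values were tested in R 4.3.3 with limma 3.58.1 (mean-variance trend, pseudocount 1, no covariates) over all 12397 genes that reached a value of 10 in 5 or more libraries. P-values were two-sided. A log2FC on this scale understates the change of low genes. Samples of a stage come from different dogs. edgeR 4.0.16 and DESeq2 1.42.0 on the recovered reads, other scalings, pseudocounts, filters and adjustments, weights per library and leaving out each library were alternatives. The fits were also run on simulated data, in which all genes had the same relative spread beyond counting error. That run does not show how well they find changes in genes that vary as widely as the endothelial genes. Named were all 10 endothelial genes, the called genes (at most 4) and the highest and lowest log2FC of each list, the 5 nearest profiles and the annotation neighbors, which were read from the RefSeq table of the assembly UU_Cfam_GSD_1.0. Genes and lists were chosen with earlier results of these data known. FIGF, NOTCH4, NOTCH3 and LORICRIN were not found in the table by these symbols.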

Additional observations from a re-analysis of the deposited data

Results flagged for a closer look

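In 2 of 20 groups of 5 libraries formed by the endothelial genes and the stages, 1 library lay far from the others. This was judged by its gap to the nearest library as a share of the whole range of the group (critical value 0.71). For normally distributed values chance gives about 1 of 20, and whether the read counts are so distributed was not tested. For LYVE1 in early CCH the share was 0.853, with library 2 at 147.9 and the next at 23.8. For CDH5 in late CCH it was 0.735, with library 1 at 136 and the next at 71.6.

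Over all 94 groups of the 47 genes examined in this way, 9 exceeded the critical value, where chance gives 4.7 for independent, normally distributed values. Many of these genes were picked for their values and all share the same libraries, so this number is a rough guide only. Among the vascular lists these were ADGRL4 in early CCH (0.742, library 2 high at 104), RASIP1 in late CCH (0.765, library 5 low at 12.6), ICAM2 in early CCH (0.74, library 5 high at 39.7), and ITGA9 in early (0.74, library 2 high at 38.1) and in late CCH (0.783, library 4 high at 109). The B-cell markers CD79B (0.913, 434) and CD22 (0.716, 899.7) were both high in late library 3.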

How the results depend on the processing

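The counts of 0 endothelial genes called higher and 0 called lower were found under all 22 alternatives. Of these, Benjamini-Hochberg adjustment was applied only to limma with all 10 libraries. The edgeR and DESeq2 tests and the fits without 1 library used the stricter BY adjustment. FLT4 had an unadjusted p of 0.00318 in DESeq2 and of 0.000114 in limma without early library 3. Whether Benjamini-Hochberg adjustment would call it there was not tested. The number without overlap of the stages was 2 without early library 3 and ranged from 0 to 2 over the fits that left out 1 library. The median log2FC of the endothelial genes was 0.25 to 0.70 over these fits, and 0.41 to 0.77 under the other alternatives. VWF, KDR, CDH5, TIE1 and FLT1 kept a log2FC above 0, and FLT4 and TEK below 0, under every alternative in which they were tested. LYVE1 changed sign with libraries scaled by their total (0.02097) and with weights per library (0.01156), and ranged from -0.68 to 0.69 over the fits without 1 library. It was -1 in edgeR and -1.02 in DESeq2, and FLT4 was -1.13 and -1.14, past a log2FC of 1 in size but not called. PECAM1 ranged from -0.47 to 0.10 over these fits. TIE1 had an unadjusted p of 0.0406 with total scaling and of 0.0224 with weights, where FLT4 had 0.0561 and 0.0531. Alternatives for the called genes of the lists were chosen after the data had been seen. PTPRB and HEYL lost their call without the filter on low values (BY-adjusted p = 0.0558 and 0.0577), HEYL also with a pseudocount of 0.5 (0.0516). In edgeR, HEYL (0.0535), STAB1 (0.0742) and FLT3 (0.0559) lost their call, and CD34 kept its call in all alternatives that used the 10 libraries. Over all genes, the calls ran from 18 to 144 higher and from 29 to 153 lower when 1 library was left out. They were 685 higher and 436 lower with Benjamini-Hochberg adjustment, 480 and 330 with DESeq2, 81 and 96 with edgeR, and 217 and 201 with weights. No paired analysis was possible because no column name holds a replicate number of the labels. Such numbers would not mark pairs in any case, since early and late tumors are listed for dogs of different breeds. Depth limits PROX1, with at most 35 reads in a library.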
